A study of Rattus norvegicus with 14 samples.

Results

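The NF-kB subunits and their IkB inhibitors were described by 10 genes in rat hippocampus, chosen by name from the 22601 gene rows of each file. They were 4 genes of IkB proteins (Nfkbia, Nfkbib, Nfkbie, Nfkbiz), Tnfaip3, and the subunit genes Rela, Rel, Relb, Nfkb1 and Nfkb2, and all 10 were found. RNA sequencing was done on 14 hippocampi of wild-type Wistar rats weighing 180 to 220 g. A seizure model made with PTZ (pentylenetetrazole, which blocks GABA-A receptors and provokes convulsions) was given Q808, a compound known by its code name, in 5 animals (PTZ + Q808), or vehicle in 5 animals (PTZ), and 4 animals without the model received vehicle (control). The sources used here give no dose, sampling time, sex or age, and a group with Q808 but no PTZ was not analysed here.

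NF-kB is a family of transcription factor dimers that IkB proteins hold in the cytoplasm. Signals from cytokine receptors and Toll-like receptors activate the IKK kinases, which mark the IkB protein for destruction and let the dimer enter the nucleus. Several inhibitors are themselves transcribed from NF-kB target genes, which closes a feedback loop, and in brain the pathway is known in neurons, glia and vessel cells.

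The promoter windows are shown because the inhibitors and subunits are known for feedback through NF-kB sites. RefSeq sequences of GRCr8 were matched for 9 of the 10 genes, and Relb had no entry. Each window holds 250 bases before and 50 bases after the annotated start, 300 in all, on the gene's strand. The consensus searched was the 10-base NF-kB site GGGRNNYYCC, on both strands, and its matches are in capitals. In it R is A or G, Y is C or T, and N is any base. A match is a description of letters and says nothing of binding. The windows of Nfkbia (chr6:78597023-78597322, minus strand), Nfkbiz (chr11:58251471-58251770, plus strand) and Rel (chr14:101921889-101922188, minus strand) are printed whole. They were chosen with the expression values below known, where Nfkbia passed the test and Nfkbiz and Rel did not. Nfkb1, Nfkb2, Nfkbie and Tnfaip3 also had matches, and none of them passed.
Nfkbia: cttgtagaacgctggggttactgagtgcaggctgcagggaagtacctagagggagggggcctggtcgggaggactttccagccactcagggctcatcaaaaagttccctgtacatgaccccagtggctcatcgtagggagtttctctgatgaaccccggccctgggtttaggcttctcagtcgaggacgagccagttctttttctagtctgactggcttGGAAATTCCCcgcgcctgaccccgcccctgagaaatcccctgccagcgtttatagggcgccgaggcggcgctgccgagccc
Nfkbiz: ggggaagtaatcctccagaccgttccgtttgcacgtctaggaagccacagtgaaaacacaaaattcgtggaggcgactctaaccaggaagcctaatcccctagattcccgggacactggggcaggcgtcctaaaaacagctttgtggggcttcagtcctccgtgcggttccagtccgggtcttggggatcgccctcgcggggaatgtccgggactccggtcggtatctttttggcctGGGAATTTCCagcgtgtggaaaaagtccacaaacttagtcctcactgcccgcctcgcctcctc
Rel: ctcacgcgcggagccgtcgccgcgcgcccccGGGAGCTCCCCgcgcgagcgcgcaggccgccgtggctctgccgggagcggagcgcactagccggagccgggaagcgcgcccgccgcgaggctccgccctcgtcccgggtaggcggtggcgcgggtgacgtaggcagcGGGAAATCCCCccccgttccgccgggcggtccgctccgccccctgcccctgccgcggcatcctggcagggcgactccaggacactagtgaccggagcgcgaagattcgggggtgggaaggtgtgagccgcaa

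Matches to the consensus lay in 7 of the 9 windows, and the windows of Nfkbib and Rela had none. Over all annotated genes with a window, 8.16% of 27457 had a match. The match of Nfkbiz began 13 bases before the start and read GGGAATTTCC, the same letters as the match of Nfkb1, which began at base 4 after the start. The match of Nfkbia began 31 bases before the start and read GGGAATTTCC on the opposite strand. Nfkb2 had GGGACTTTCC from 20 bases before the start, and Nfkbie had GGGGGATTCC from 164 bases before it. Rel had 2 separate stretches and Tnfaip3 had 3, of which the pair nearest the start of Tnfaip3 read GGGACTTTCC and GGGGATTTCC on the opposite strand. Overlapping matches of Rel and the reading of 1 stretch on both strands were counted as 1 stretch here.

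**Figure D1:**
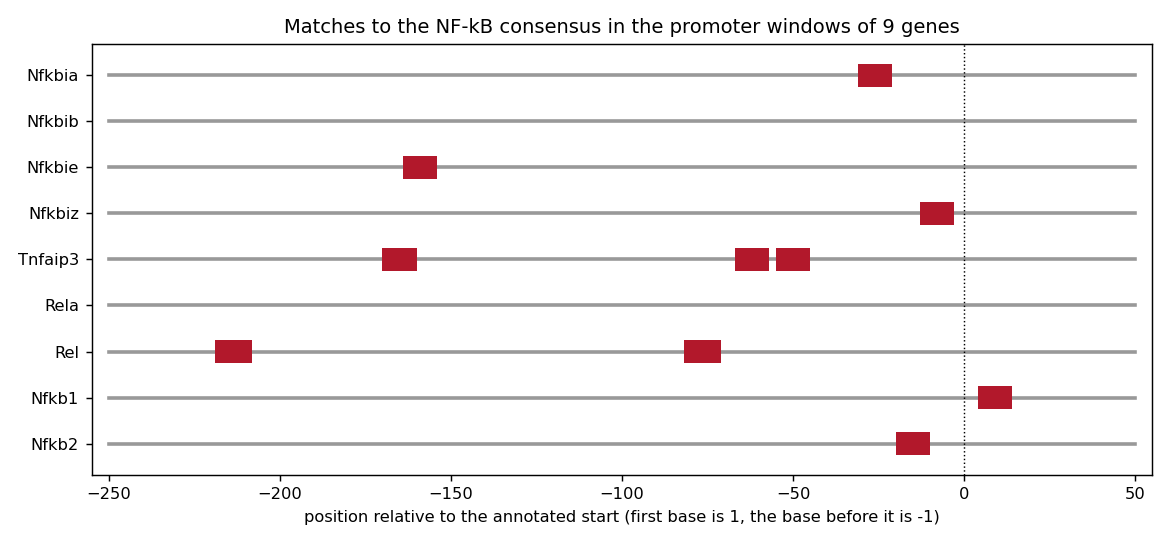
Positions of matches to the NF-kB consensus (blocks, 10 bases each) in the promoter windows of 9 genes, in bases from the annotated start (dotted line). Matches stand within 31 bases of the start in Nfkbia, Nfkbiz, Nfkb1 and Nfkb2, and none is drawn for Nfkbib and Rela.

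Values were deposited as FPKM, fragments scaled for transcript length and library size, so levels can be set side by side between genes. The ratios of FPKM between libraries gave back whole fragment numbers, with totals of 15332292 to 18543933 fragments per library. The summed FPKM of 10 hippocampal markers was 241 to 357 in PTZ + Q808, 282 to 350 in PTZ and 268 to 334 in control libraries. Wfs1 and Neurod6 had the highest medians over all libraries (137 and 73.6 FPKM), while Dsp, Spink8 and Lct were near 0 (0.493, 0.119 and 0.0732 FPKM). No other tissue was analysed here, so this sum does not test the label. Some libraries stood apart in other tissue. Ttr, a choroid plexus gene, was 329 FPKM in PTZ + Q808 replicate 1, 113 FPKM in PTZ replicate 2 and 54.5 FPKM in control replicate 3, each under 0.25 of the median library. The summed striatal markers reached 536 FPKM in control replicate 2 (at most 76.0 in the other libraries), and the summed pituitary markers reached 687 FPKM in PTZ + Q808 replicate 3 (at most 12.6 in the others). Y-linked transcripts were present in 8 of the 14 libraries, in 6 of the 10 given PTZ and in 2 of the 4 controls.

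Nfkbia, which encodes IkB-alpha, the inhibitor best known for fast resynthesis after NF-kB activation, was the member with the highest mean in every group. Its FPKM was 27.4, 35.4, 29.6, 25.8 and 33.5 in PTZ + Q808, 27.0, 24.6, 29.7, 35.8 and 34.6 in PTZ, and 11.8, 16.1, 17.9 and 16.4 in control libraries. Every library given PTZ lay above every control library, and the PTZ + Q808 and PTZ libraries covered nearly the same range. The group means were 30.3 ± 4.05 FPKM in PTZ + Q808 (SD, n = 5), 30.3 ± 4.79 FPKM in PTZ (SD, n = 5) and 15.6 ± 2.64 FPKM in control libraries (SD, n = 4), a ratio of 1.95 to control for either group. These values rest on 711 to 882 fragments in PTZ + Q808, 715 to 981 in PTZ and 330 to 494 in control libraries. Counting error would give a coefficient of variation of 3.49% in either PTZ-given group and 4.87% in controls, against the 13.3%, 15.8% and 17.0% seen in PTZ + Q808, PTZ and control libraries.

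Differences between groups were tested with limma on log2(FPKM + 1) over the 12744 genes with at least 1 FPKM in at least 4 libraries, and the threshold for a call was 0.05 after Benjamini-Hochberg adjustment over those genes. Nfkbia rose in PTZ hippocampi relative to control by 0.92 ± 0.13 on the log2 scale (SE, limma adjusted p = 0.0263, higher in 5 of 5 libraries). It was 1 of only 4 genes called in that comparison, and ranked 3 of 12744 by p. Nfkbia also rose in PTZ + Q808 relative to control, by 0.93 ± 0.13 (limma adjusted p = 0.00893). With the PTZ + Q808 and PTZ means averaged and set against control, a contrast that uses all 10 animals given PTZ, the rise was 0.92 ± 0.12 (limma adjusted p = 0.00576, exact permutation p = 0.000999 unadjusted, the smallest that 1001 arrangements allow). The comparisons share the 4 control libraries. The call for PTZ against control was close to its threshold and ended, by limma, when single libraries were left out: the adjusted p was 0.107, 0.0609, 0.0542 and 0.131 without control replicates 1, 2, 3 and 4, 0.073, 0.0949 and 0.0812 without PTZ replicates 3, 4 and 5, and 0.0547 without PTZ + Q808 replicate 3, while the difference stayed between 0.80 and 0.99. The call of PTZ + Q808 against control ended without the 3 libraries low in Ttr (1.03, limma adjusted p = 0.0695), and the call over all animals given PTZ held there (1.04, limma adjusted p = 0.0147).

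The difference in Nfkbia was present in libraries with and without Y-linked transcripts. Where these transcripts were present, the lowest of 6 libraries given PTZ had 24.6 FPKM, against 16.1 FPKM in the highest of 2 controls. Where they were not, the lowest of 4 libraries given PTZ had 29.6 FPKM, against 17.9 FPKM in the highest of 2 controls.

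**Figure D2:**
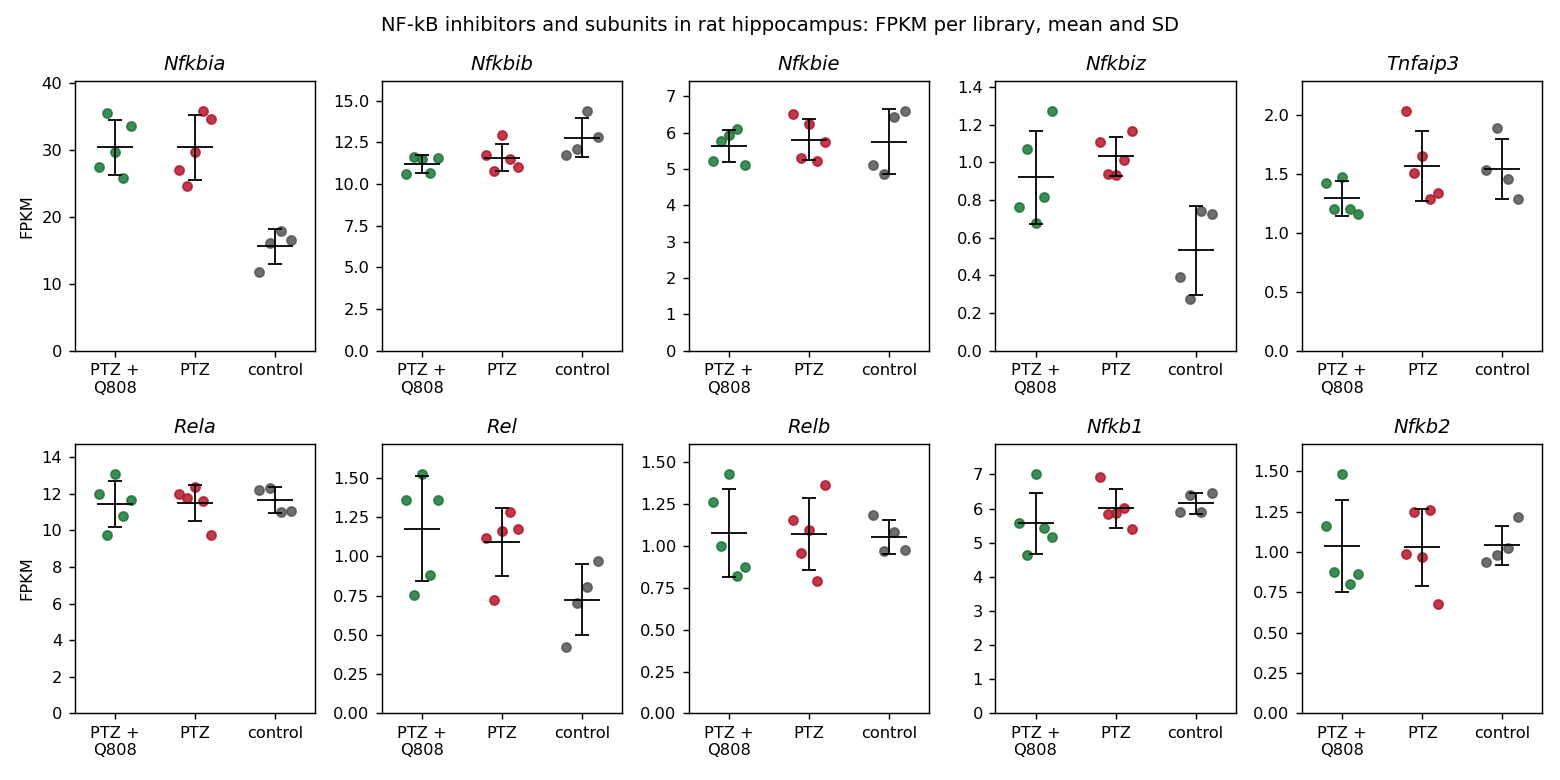
FPKM of the 10 genes in each library (points) with group mean and SD (bars), for PTZ + Q808 (n = 5), PTZ (n = 5) and control (n = 4). Nfkbia libraries given PTZ lie between 24.6 and 35.8 FPKM and control libraries between 11.8 and 17.9 FPKM, while Rela, Relb, Nfkb1, Nfkb2, Nfkbie and Tnfaip3 overlap between all groups.

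None of the other 3 IkB genes passed the test in any comparison. Nfkbiz, which encodes the nuclear protein IkB-zeta, a coactivator of secondary NF-kB response genes, was at the lower end of detection. Its FPKM was 0.765, 1.07, 0.676, 0.816 and 1.27 in PTZ + Q808, 1.11, 0.938, 0.932, 1.01 and 1.17 in PTZ, and 0.393, 0.274, 0.742 and 0.727 in control libraries. All 5 PTZ libraries were above all 4 controls, and PTZ + Q808 overlapped with control. These are 36 to 64 fragments in PTZ + Q808, 47 to 59 in PTZ and 14 to 39 in control libraries. No control library reached 1 FPKM, so the gene entered the test only through the groups given PTZ. On the log2(FPKM + 1) scale the difference was 0.42 ± 0.12 for PTZ against control, which did not pass (SE, limma adjusted p = 0.407). It was 0.33 ± 0.12 for PTZ + Q808 against control (limma adjusted p = 0.134) and 0.37 ± 0.10 for all animals given PTZ (limma adjusted p = 0.104). The added 1 FPKM understates differences at such levels. On the recovered fragments with limma voom, an alternative chosen after seeing the data, the log2 difference of Nfkbiz was 1.04 ± 0.28 for PTZ against control (adjusted p = 0.366) and 0.84 ± 0.28 for PTZ + Q808 against control (adjusted p = 0.109).

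Nfkbib, which encodes IkB-beta, an inhibitor not known for rapid resynthesis, stood the other way round. Its FPKM was 10.6, 11.7, 11.5, 10.7 and 11.6 in PTZ + Q808, 11.7, 10.8, 12.9, 11.5 and 11.0 in PTZ, and 11.8, 12.1, 14.4 and 12.8 in control libraries. The PTZ + Q808 libraries all lay below the controls, with 11.7 FPKM in the highest and 11.8 FPKM in the lowest control, and the PTZ libraries overlapped with control. The difference of PTZ + Q808 from control was -0.17 ± 0.07 and did not pass (limma adjusted p = 0.167). Nfkbie, which encodes IkB-epsilon, ran from 5.11 to 6.12 FPKM in PTZ + Q808 (median 5.77), from 5.23 to 6.51 in PTZ (median 5.73) and from 4.85 to 6.60 in control libraries (median 5.79). Its 3 ranges overlapped, with a difference for all animals given PTZ of -0.0016 (95% interval -0.18 to 0.17, limma adjusted p = 0.996).

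Tnfaip3, which encodes A20, the ubiquitin-editing enzyme that limits signalling to IKK, had 1.43, 1.20, 1.47, 1.20 and 1.16 FPKM in PTZ + Q808, 2.03, 1.51, 1.65, 1.29 and 1.34 FPKM in PTZ and 1.53, 1.89, 1.46 and 1.29 FPKM in control libraries. The groups overlapped, and the mean was lowest with Q808. The difference of PTZ + Q808 from PTZ was -0.16 ± 0.09 (95% interval -0.36 to 0.04, limma adjusted p = 0.838), and that of PTZ from control was 0.01 ± 0.10 (limma adjusted p = 0.987).

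Among the subunits, Rel, which encodes c-Rel, a subunit with a transactivation domain, was higher on average in the animals given PTZ. Its FPKM was 1.36, 0.756, 1.53, 0.884 and 1.36 in PTZ + Q808, 1.12, 0.723, 1.16, 1.28 and 1.18 in PTZ, and 0.425, 0.700, 0.803 and 0.969 in control libraries. In each group given PTZ the lowest library lay within the control range, and 2 of 5 PTZ + Q808 libraries did so. These are 32 to 75 fragments in PTZ + Q808, 37 to 62 in PTZ and 21 to 48 in control libraries, and Rel, like Nfkbiz, reached 1 FPKM only in animals given PTZ. The differences were 0.33 ± 0.13 for PTZ + Q808 against control (limma adjusted p = 0.175) and 0.28 ± 0.13 for PTZ against control (limma adjusted p = 0.615), and neither passed. On recovered fragments they were 0.71 ± 0.28 and 0.61 ± 0.28, and neither passed (voom adjusted p = 0.172 and 0.602).

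Rela, which encodes p65, the main transactivating subunit, ran from 9.77 to 13.1 FPKM in PTZ + Q808 (median 11.7), from 9.77 to 12.4 in PTZ (median 11.8) and from 11.0 to 12.3 in control libraries (median 11.6). Nfkb1, which encodes the p105 precursor of p50, ran from 4.65 to 7.02 FPKM in PTZ + Q808 (median 5.43), from 5.39 to 6.94 in PTZ (median 5.86) and from 5.89 to 6.46 in control libraries (median 6.15). For both genes the control range lay wholly within the range of each group given PTZ. Over all animals given PTZ, Rela differed from control by -0.02 (95% interval -0.18 to 0.13, limma adjusted p = 0.900) and Nfkb1 by -0.08 (95% interval -0.26 to 0.09, limma adjusted p = 0.629).

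The subunit genes of the noncanonical branch were low. Nfkb2, which encodes the p100 precursor of p52, averaged 1.04 ± 0.29 FPKM in PTZ + Q808, 1.03 ± 0.24 FPKM in PTZ and 1.04 ± 0.12 FPKM in control libraries (SD, n = 5, 5 and 4). Relb, the usual partner of p52, averaged 1.08 ± 0.26 FPKM in PTZ + Q808, 1.07 ± 0.22 FPKM in PTZ and 1.05 ± 0.10 FPKM in control libraries (SD, n = 5, 5 and 4). The group means of either gene lay within 1 SD of each other. Over all animals given PTZ, the 95% interval was -0.23 to 0.20 for Nfkb2 and -0.19 to 0.21 for Relb.

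**Figure D3:**
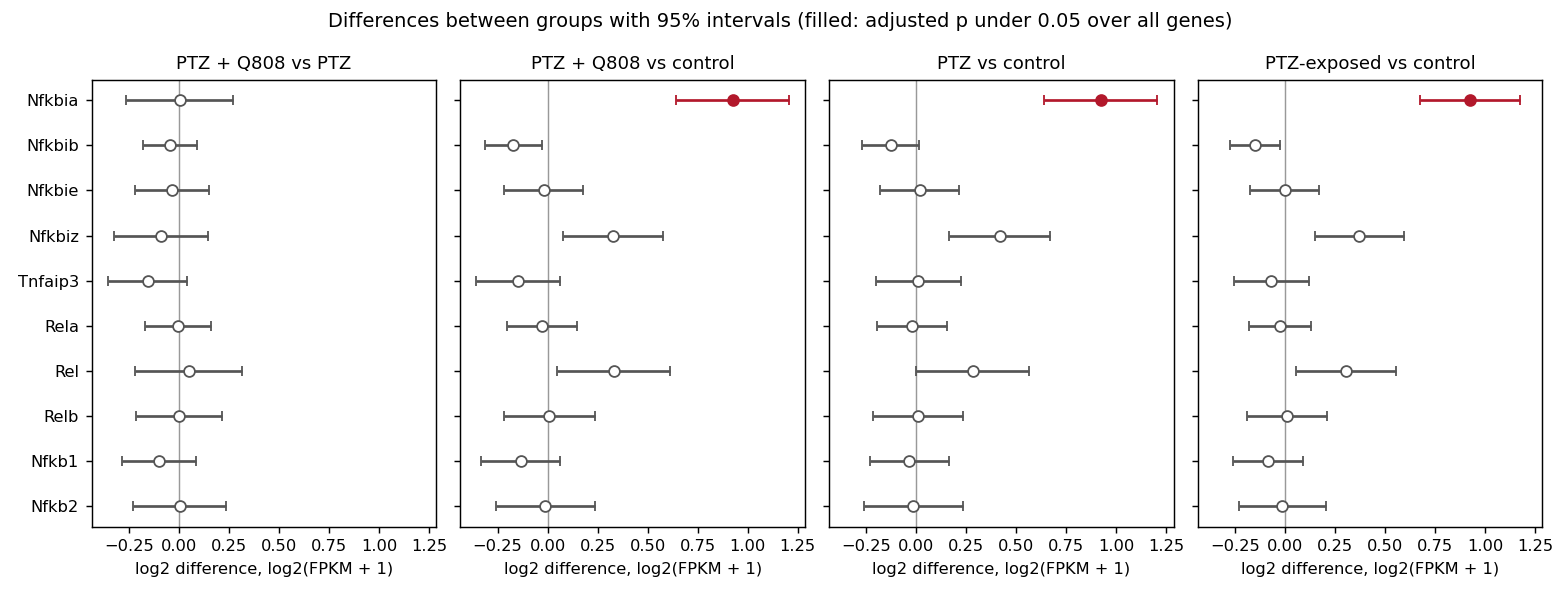
Differences of group means on the log2(FPKM + 1) scale (points) with 95% intervals (bars) for the 10 genes in 4 comparisons; PTZ-exposed is the mean of PTZ + Q808 and PTZ. Nfkbia is filled at 0.92 to 0.93 in the 3 comparisons with control and lies at 0.0040 between PTZ + Q808 and PTZ.

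Counted over the family, 1 of 10 members was called in PTZ against control, where 0.0314% of all genes tested were called, and the member was Nfkbia. For PTZ + Q808 against control it was 1 of 10, with 2.87% of all genes, and for all animals given PTZ 1 of 10, with 0.62% of all genes. On recovered fragments Nfkbia was called for PTZ + Q808 against control (background 3.05%) and for all animals given PTZ (background 0.589%), but not for PTZ against control (adjusted p = 0.0649, background 0.00785%). Groups did not overlap for Nfkbia and Nfkbiz in PTZ against control (3.03% of all genes), for Nfkbia and Nfkbib in PTZ + Q808 against control (8.91%), and for Nfkbia over all animals given PTZ (1.51%). An unadjusted p under 0.05 was reached by Nfkbia and Nfkbiz in PTZ against control (8.11% of all genes), and by Nfkbia, Nfkbib, Nfkbiz and Rel both in PTZ + Q808 against control (20.7%) and over all animals given PTZ (17.1%). Nfkbiz and Rel passed the filter only through animals given PTZ, where they are high, so their places in these counts are a description and lend the family no support. The median log2 difference of the 10 members was -0.0151 for PTZ + Q808 against control and 0.0092 for PTZ against control, beside -0.0202 and -0.0102 over all genes tested.

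Q808 within the seizure model moved no member past the threshold. Of 12744 genes, 0 were called in PTZ + Q808 against PTZ by limma (0%), and 0 on recovered fragments. An unadjusted p under 0.05 was found for 0 of 10 members, against 6.14% of all genes, and the groups overlapped for all 10 members, against 0.777% of genes whose groups did not. For Nfkbia the difference was 0.0040 with a 95% interval of -0.26 to 0.27 (limma adjusted p = 0.997), so a change of this gene by Q808 larger than that interval was not seen. The intervals of the other 9 members reached from -0.36 at the lowest (Tnfaip3) to 0.32 at the highest (Rel). A p that misses the threshold does not show that the groups are alike.

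The order of the members by mean FPKM in control hippocampus was Nfkbia (15.6 ± 2.64), Nfkbib (12.8 ± 1.17), Rela (11.7 ± 0.70), Nfkb1 (6.16 ± 0.31), Nfkbie (5.76 ± 0.895), Tnfaip3 (1.54 ± 0.25), Relb (1.05 ± 0.10), Nfkb2 (1.04 ± 0.12), Rel (0.724 ± 0.23) and Nfkbiz (0.534 ± 0.24), each with its SD over 4 libraries. The same order held by medians. Control libraries of neighbours in this order overlapped, except at 3 steps: between Rela and Nfkb1, between Nfkbie and Tnfaip3, and between Tnfaip3 and Relb. In both groups given PTZ Nfkbia stood clear of the second gene.

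Summed over the 10 genes, FPKM was 69.7 ± 4.49 in PTZ + Q808, 71.0 ± 4.51 in PTZ and 56.8 ± 4.09 in control libraries (SD, n = 5, 5 and 4). Nfkbia made up 43.4 ± 3.97% of this sum in PTZ + Q808, 42.5 ± 4.67% in PTZ and 27.2 ± 2.90% in control libraries. Nfkbib made up 16.1 ± 0.47% in PTZ + Q808, 16.3 ± 1.11% in PTZ and 22.5 ± 1.02% in control libraries, while its own FPKM was not called different. Rela made up 16.5 ± 1.80%, 16.3 ± 1.89% and 20.7 ± 2.62% in PTZ + Q808, PTZ and control libraries. These are shares of RNA per length, not of protein.

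**Figure D4:**
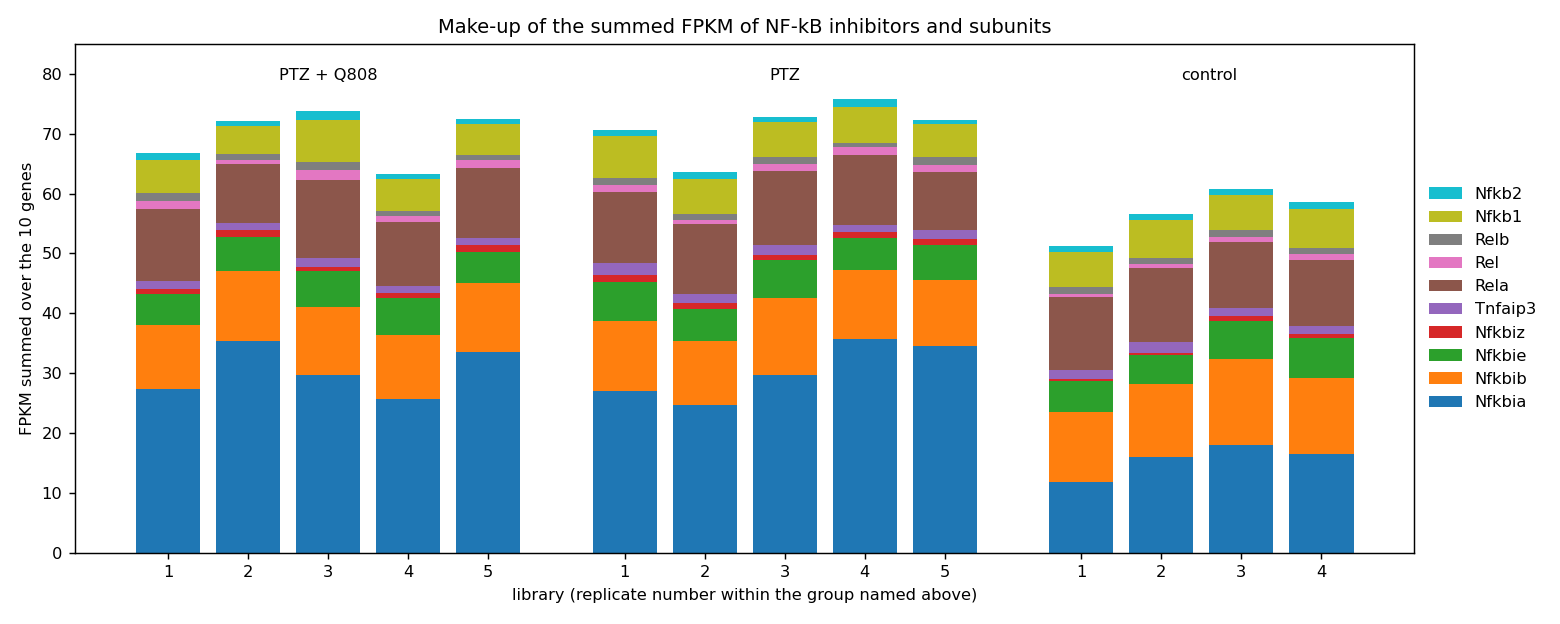
Stacked bars of FPKM per library for the 10 genes, grouped as PTZ + Q808, PTZ and control. The lowest segment, Nfkbia, is 24.6 to 35.8 FPKM in animals given PTZ and 11.8 to 17.9 FPKM in controls.

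Cell markers were set beside these values, because in bulk tissue fewer cells of a type and less RNA per cell cannot be told apart. The summed FPKM of 15 microglial markers was 224 to 296 in PTZ + Q808, 225 to 264 in PTZ and 236 to 290 in control libraries, with 0 of 14 tested markers called in any comparison. That of 12 endothelial markers was 90.8 to 138 in PTZ + Q808, 98.0 to 150 in PTZ and 98.0 to 130 in control libraries, with 0 of 12 called. For blood leukocyte markers, the sum over the 12 genes found was 48.8 to 101 FPKM in PTZ + Q808, 49.1 to 87.0 in PTZ and 41.5 to 56.9 in control libraries. Most of this sum was 1 gene, Lyz2, which averaged 66.6 FPKM in PTZ + Q808, 60.2 in PTZ and 45.8 in control libraries. The ranges of the sum overlapped, and of 5 tested markers 0 were called for PTZ against control or over all animals given PTZ. For PTZ + Q808 against control 1 was called, the neutrophil protease gene Prtn3. It had 1.93 ± 0.54 FPKM in PTZ + Q808, 0.713 ± 0.37 in PTZ and 0.674 ± 0.36 in control libraries (SD). The means of PTZ and control libraries thus lay under 1 FPKM, the level of the filter, and that of PTZ + Q808 above it. That call (0.81 ± 0.18, limma adjusted p = 0.0331) ended in 9 of 24 alternatives, while the T cell marker Cd3e stood at -0.36 in that comparison and did not pass (limma adjusted p = 0.476). The summed FPKM of 10 markers of meninges and fibroblasts was 94.9 to 285 in PTZ + Q808, 101 to 344 in PTZ and 77.4 to 164 in control libraries, highest in PTZ replicate 1. All 10 differences were above 0 in each comparison with control, with medians of 0.60 for PTZ + Q808, 0.37 for PTZ and 0.51 for all animals given PTZ, and 0 were called. Oligodendrocyte markers summed to 2739 to 5232 FPKM in PTZ + Q808, 3899 to 5823 in PTZ and 3740 to 7389 in control libraries, with 7 of 8 differences below 0 for PTZ + Q808 against control, 8 of 8 for PTZ against control, and 0 called. Of 8 astrocyte markers, Sox9, a glial transcription factor, was called lower for PTZ + Q808 against control, with 4.00 ± 0.70 FPKM in PTZ + Q808, 3.75 ± 0.94 in PTZ and 7.24 ± 0.73 in control libraries (-0.73 ± 0.14, limma adjusted p = 0.0226), and also over all animals given PTZ (-0.77 ± 0.12, limma adjusted p = 0.0164), and the other 7 were not. The first Sox9 call ended in 7 of 25 alternatives and the second in 5 of 24, both among them without the libraries low in Ttr (limma adjusted p = 0.144 and 0.210). The part of any of these cells in the levels of Nfkbia, Nfkbiz and Rel was not tested.

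The kinases and adaptors that lead to IkB phosphorylation passed the test in no case. Of 28 listed genes of the IKK complex and its activating adaptors, 23 were tested and 0 were called in any of the 4 comparisons by limma or on recovered fragments. Their median log2 difference was -0.04 for PTZ + Q808 against control and -0.0014 for PTZ against control. The smallest limma adjusted p was 0.0724 for PTZ + Q808 against control. Summed over the 28 genes, FPKM was 196 to 205 in PTZ + Q808, 196 to 213 in PTZ and 207 to 213 in control libraries. The sums of PTZ + Q808 thus lay below those of control, a difference that was not tested. The smallest p values over all animals given PTZ belonged to Rbck1, which encodes the ubiquitin ligase subunit HOIL-1, at -0.18 ± 0.05 (limma adjusted p = 0.0953), to Tab1, a TAK1 partner, at -0.26 ± 0.08 (limma adjusted p = 0.113), and to Map3k14, which encodes the noncanonical kinase NIK, at -0.37 ± 0.12 (limma adjusted p = 0.136). None of the 3 passed.

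Of 20 listed further inhibitors and feedback regulators, 19 were found and 14 tested, and 1 was called. Tax1bp1, which encodes an adaptor of A20, averaged 41.8 ± 2.90 FPKM in PTZ + Q808, 35.8 ± 4.10 FPKM in PTZ and 31.9 ± 3.39 FPKM in control libraries (SD, n = 5, 5 and 4). It rose in PTZ + Q808 relative to control by 0.38 ± 0.09 (limma adjusted p = 0.0368), with no overlap between these groups. The call ended in 10 of 25 alternatives, among them without control replicates 1, 3 and 4 (limma adjusted p = 0.0968, 0.0925 and 0.108), without PTZ + Q808 replicates 1, 2, 3 and 5 (limma adjusted p = 0.0796, 0.0591, 0.0769 and 0.0820) and without the libraries low in Ttr (limma adjusted p = 0.200).

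Of 22 listed ligands and receptors that start the pathway, 9 passed the filter, and 0 were called in any comparison. The smallest p belonged to Il1rap, the accessory chain of the interleukin-1 receptor, with 6.84 ± 1.53 FPKM in PTZ + Q808, 8.72 ± 1.21 FPKM in PTZ and 9.34 ± 0.39 FPKM in control libraries (SD). Its difference for PTZ + Q808 against control was -0.42 ± 0.13 (limma adjusted p = 0.0839) and did not pass.

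Of 28 listed classical NF-kB target genes, 15 were tested and 0 were called by limma in any comparison, and on recovered fragments Ccl2 alone was called, for PTZ + Q808 against control (voom adjusted p = 0.0425). In that comparison limma called 3 of them higher without PTZ + Q808 replicate 4, and 3 higher and 1 lower with library weights. Their median log2 difference was 0.05 for PTZ + Q808 against PTZ, 0.22 for PTZ + Q808 against control and 0.15 for PTZ against control, beside -0.0044, -0.02 and -0.01 over all genes tested. Over all animals given PTZ, 11 of the 15 differences were above 0. Cebpb, which encodes a transcription factor of the acute response, averaged 16.8 ± 2.54 FPKM in PTZ + Q808, 16.9 ± 3.37 FPKM in PTZ and 11.8 ± 1.79 FPKM in control libraries (SD), a difference over all animals given PTZ of 0.48 ± 0.13 that did not pass (limma adjusted p = 0.0963). Ccl2, a monocyte chemokine, averaged 1.10 ± 0.80 FPKM in PTZ + Q808, 0.781 ± 0.44 FPKM in PTZ and 0.0733 ± 0.0847 FPKM in control libraries, and its difference of 0.80 ± 0.21 did not pass (limma adjusted p = 0.0988). Ccl2 rests on 31, 9, 17, 2 and 14 fragments in PTZ + Q808, 7, 7, 13, 20 and 6 in PTZ and 0, 2, 0 and 2 in control libraries, so it entered the test only through animals given PTZ, and its difference on recovered fragments (3.40 ± 0.83 for PTZ + Q808 against control) depends on how values near 0 are treated. Irf1 and Csf1 stood the other way, at -0.33 ± 0.11 and -0.28 ± 0.10, and neither passed (limma adjusted p = 0.147 and 0.171).

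Nfkbia is also known as a glucocorticoid-induced gene, and a list of 17 such genes holds it. In PTZ + Q808 against control 13 of the 17 differences were above 0 and 4 below (Angptl4 -0.34, Fkbp5 -0.18, Plin4 -0.10 and Zbtb16 -0.02, none of which passed), and 3 were called, all higher: Nfkbia, the phosphatase gene Dusp1 (1.49 ± 0.29, limma adjusted p = 0.0226) and the receptor inhibitor gene Errfi1 (0.83 ± 0.19, limma adjusted p = 0.0331). In PTZ against control Nfkbia was the 1 called, so these counts include the member itself. Of all genes tested, 2.87% were called in PTZ + Q808 against control and 0.0314% in PTZ against control. The Dusp1 call ended in 7 and the Errfi1 call in 11 of 25 alternatives. Of 30 immediate early genes, which neurons transcribe soon after strong activity, 9 were called higher for PTZ + Q808 against control, 3 for PTZ against control and 0 for PTZ + Q808 against PTZ. Without the libraries low in Ttr these counts were 0 for PTZ + Q808 against control and 2 for PTZ against control, with the replicate block 1 and 0, and over single left-out libraries 2 to 18 and 1 to 3. Their summed FPKM was 579 to 2208 in PTZ + Q808, 661 to 2388 in PTZ and 353 to 613 in control libraries. All 30 differences were above 0 in each comparison with control. The medians were 1.43 for PTZ + Q808, 1.13 for PTZ and 1.23 for all animals given PTZ. What part either programme has in the level of Nfkbia was not tested.

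Variation between libraries of the same group was described by deviations from the group mean, over 14 libraries. Of 60 relations between a member and a list mean without members, 2 had a Benjamini-Hochberg adjusted p under 0.05 for Pearson's r (100000 permutations within groups). Tnfaip3 followed the endothelial markers with r = 0.831 (permutation p = 0.00098, adjusted 0.0294) and rho = 0.855 (permutation p = 0.00075, adjusted 0.045). Without the 2 libraries farthest from the median of the markers r was 0.746, and it was 0.842 in the 8 libraries with Y-linked transcripts and 0.767 in the 6 without. Rel followed the glucocorticoid-induced genes with r = 0.783 (permutation p = 0.00071, adjusted 0.0294) and rho = 0.736 (permutation p = 0.00439, adjusted 0.0942). Without the 2 farthest libraries r was 0.694, and it was 0.693 in the libraries with Y-linked transcripts and 0.122 in the 6 without, and the difference between these values was not tested. For Nfkbia and the same genes r was 0.769 (permutation p = 0.00653, adjusted 0.0979) and rho 0.71 (permutation p = 0.0149, adjusted 0.179), which did not pass, with r = 0.735 without the 2 farthest libraries.

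**Figure D5:**
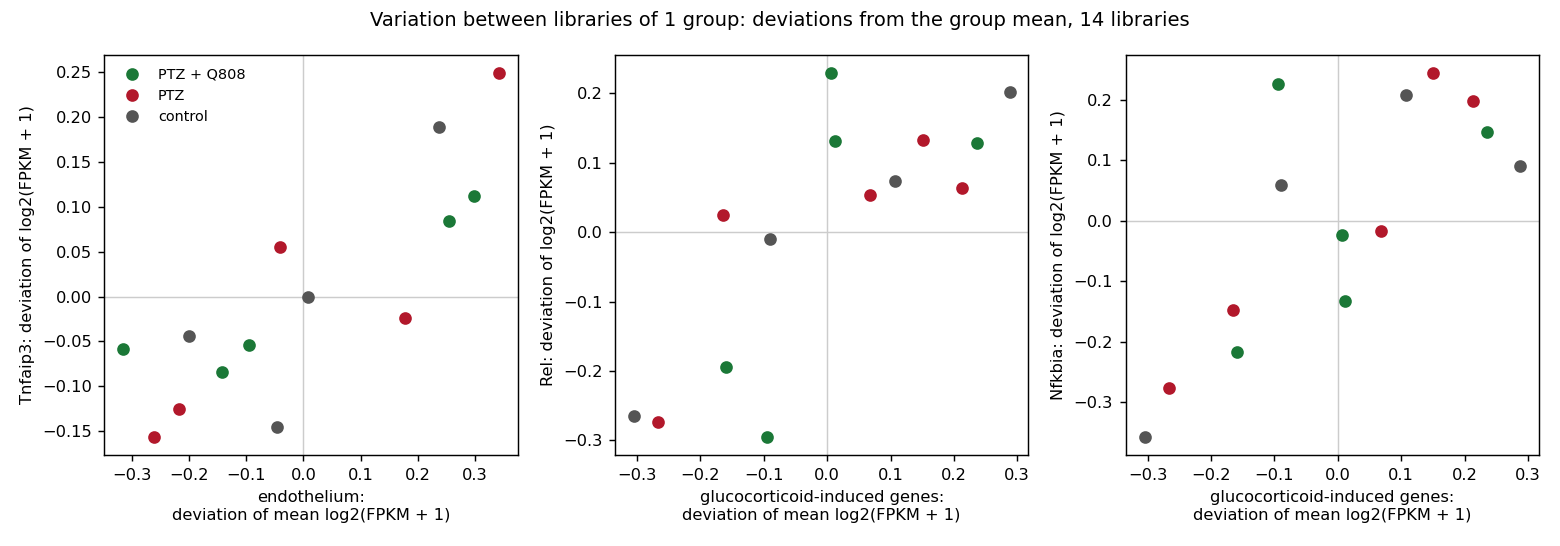
Deviation of a member's log2(FPKM + 1) from its group mean (vertical) against the same deviation of a list mean (horizontal), 1 point per library and colours for PTZ + Q808, PTZ and control. Tnfaip3 follows the endothelial markers (r = 0.831), and Rel and Nfkbia are drawn against glucocorticoid-induced genes (r = 0.783 and 0.769).

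Among the 5 tested genes most like Nfkbia over the 14 libraries by Pearson's r of log2(FPKM + 1) were Lfng (0.885), Apold1 (0.885), Sgk1 (0.884) and Cebpb (0.876). Group differences and library make-up are shared by these points. By deviations from group means the closest genes were Fkbp2 (0.879), Dynlrb1 (0.869), Bud31 (0.867), Nme3 (0.860) and Marc2 (0.855), and no gene was among the first 5 by both measures.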

How the data were processed

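RNA of 14 rat hippocampi was sequenced after mRNA capture, per the labels' protocols. The authors deposited FPKM per gene. The submitters' processing notes name Trimmomatic, HISAT2, Bowtie2, SAMtools, StringTie, Cufflinks, HTSeq and DESeq, without roles, and the genome build is not given in the sources used here. Of 22601 gene IDs, 20633 matched RefSeq, and 12 symbols had been turned into dates.

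Groups came from the labels. Nothing says how libraries were batched. The main test was limma 3.58.1 in R 4.3.3 on log2(FPKM + 1), with all 3 groups in 1 fit, 11 residual degrees of freedom, two-sided, adjusted over 12744 genes. It was also run on simulated data with noise drawn independently for each gene. Differences in library make-up that move many genes together were not simulated, so that run cannot show how the test behaves under them. Replicate libraries differed beyond counting noise (chi-square per degree of freedom 14.5 to 43.0). Whole fragments were recovered for 17687 of 17687 genes with at least 4 positive values (tolerance 0.02 fragment). All 10 members passed the filter, Nfkbiz and Rel only through animals given PTZ. Counting error covers only sampling of fragments.

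Members and lists were chosen with earlier results of these data known. All members were named. From other lists the called genes, or up to 4 with the smallest p, were named, and for likeness the first 5, of which 1 is not reported here. Alternatives were other pseudocounts, filters, scalings, fits, a replicate block, a Y-linked term, library weights and left-out libraries.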

Additional observations from a re-analysis of the deposited data

How the results depend on the processing

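Over all animals given PTZ, the higher level of Nfkbia kept its direction and its call under all alternatives tried, with a limma adjusted p of 0.00407 to 0.0432 over single left-out libraries (a fit of only the groups compared was not run for it). PTZ against control lost it without a filter (0.92, adjusted p = 0.0727), with only the 2 groups fitted (0.92, adjusted p = 0.104), with the replicate block (0.88, adjusted p = 0.148) and with voom on recovered fragments (0.96, adjusted p = 0.0649), leaving 0 members called, and 0 to 1 over left-out libraries. PTZ + Q808 against control lost it with the replicate block (0.88, adjusted p = 0.0594) and when the low-Ttr libraries were left out (1.03, adjusted p = 0.0695), leaving 0 members called. The cause was not tested.

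Genes called in PTZ against control numbered 4, against 1 without a filter, 1 with only the 2 groups, 0 with the block, 8 with the Y-linked term, 7 with weights, 1 with voom and 1 to 5 over left-out libraries. PTZ + Q808 against PTZ had 0, and 2 without a filter. PTZ + Q808 against control had 366, against 190 without a filter, 197 with only the 2 groups, 4 with the block, 564 with the Y-linked term, 1100 with weights, 0 without the libraries low in Ttr and 17 to 673 over left-out libraries. All animals given PTZ had 79, against 40 without a filter, 4 with the block, 132 with the Y-linked term, 522 with weights, 4 without the libraries low in Ttr and 2 to 149 over left-out libraries.

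Of 13 same-number pairs, 2 correlated above 0.1 (range -0.28 to 0.143). Such correlations cannot show whether libraries of the same number shared an order or batch. Y-linked transcripts were present in replicates 1 and 2 and absent in replicate 3 of every group, while replicates 4 and 5 differed between groups. Summed erythrocyte markers, in order of replicate number, were 3651, 2657, 1086 and 1233 FPKM in control libraries. They were 3208, 2360, 1559, 1081 and 1033 FPKM in PTZ, and 3437, 4460, 2554, 1766 and 705 FPKM in PTZ + Q808. What the replicate numbers stand for was not tested.

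Signs turned only among differences near 0. For PTZ + Q808 against PTZ, Nfkbia -0.0038 (quantile), -0.012 (weights), -0.032 (low Ttr out), Rel -0.052 (low Ttr out), Rela 0.0022 (quantile), 0.029 (weights), Relb -0.0019 (pseudocount 0.1), -0.0049 (quantile), -0.051 (low Ttr out) turned sign. For PTZ + Q808 against control, Nfkb2 0.037 (replicate block), 0.0017 (Y-linked term), 0.00022 (weights), Nfkbie 0.053 (low Ttr out), Rela 0.012 (weights), Relb -0.0012 (quantile), -0.016 (low Ttr out) turned sign. For PTZ against control, Nfkb2 0.033 (replicate block), Nfkbie -0.014 (weights), Rela 0.0020 (replicate block) turned sign. For all animals given PTZ against control, Nfkb2 0.035 (replicate block), Nfkbie 0.0090 (median-of-ratios), 0.0016 (quantile), 0.014 (replicate block), 0.0058 (Y-linked term), 0.073 (low Ttr out) turned sign.

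Left-out libraries gave for PTZ + Q808 against PTZ Nfkbia -0.065 to 0.065, Nfkbie -0.066 to 0.00088, Nfkb2 -0.070 to 0.047, Rela -0.059 to 0.045, Relb -0.058 to 0.050, Rel -0.019 to 0.12. Left-out libraries gave for PTZ + Q808 against control Nfkbie -0.085 to 0.040, Nfkb2 -0.085 to 0.031, Rela -0.073 to 0.024, Relb -0.050 to 0.055. Left-out libraries gave for PTZ against control Nfkbie -0.050 to 0.076, Nfkb2 -0.056 to 0.051, Rela -0.046 to 0.032, Relb -0.041 to 0.060, Tnfaip3 -0.052 to 0.073. Left-out libraries gave for all animals given PTZ against control Nfkbie -0.067 to 0.058, Nfkb2 -0.050 to 0.027, Rela -0.048 to 0.0026, Relb -0.021 to 0.039.

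Nfkbiz, Rel, Nfkb2 and Relb rest on few fragments, which limits what their differences can show.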

Other observations

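Split by the presence of Y-linked transcripts, Nfkbie differed between animals given PTZ and controls by 0.18 on the log2(FPKM + 1) scale in the 8 libraries that had them and by -0.19 in the 6 that did not. Rela differed by -0.15 with them and by 0.13 without. Nfkbiz differed by 0.57 with them and by 0.18 without. Each part holds 2 controls, and the differences between the parts were not tested.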
